A study of Mus musculus with 8 samples.

Results

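Chromatin accessibility of Etv2 knockout mesoderm was compared with that of wild-type mesoderm at day 4 of embryoid body differentiation, in 4 of the 8 ATAC-seq libraries of the series. Both groups are PDGFRalpha+FLK1+ cells, written DP. WT DP came from the mouse embryonic stem cell line A2lox.Cre, of wildtype genotype, and KO DP from a line that the labels call Etv2 knockout, with 2 libraries and no added agent in each group. The other 4 libraries are PDGFRalpha-FLK1+ cells, written SP, 2 from A2lox.Cre (WT SP) and 2 from the line iETV2 (OE SP), in which Etv2 was induced with 2 µg/ml doxycycline from day 2.5. They entered the estimate of the spread and are given as levels. The 167573 of 168842 regions with a mean of at least 10 normalized reads over the 8 libraries were tested. The labels name 1 cell line per genotype, so a difference between the lines and an effect of Etv2 cannot be told apart in any value given here. The parental line of the knockout, the form of its deletion and the number of clones go unstated in the labels, as does the question of separate cultures for replicate libraries. The p-values therefore speak of the spread among these libraries alone, which may be technical.

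ETV2 is an ETS-family transcription factor made for a short time in mesoderm, and mouse embryos without it form neither endothelium nor blood. FLK1, the VEGF receptor encoded by Kdr, marks mesoderm that can give vessels, blood, heart and smooth muscle, and PDGFRalpha is kept on the cells of this mesoderm that have not entered the vessel and blood lineages. In ATAC-seq the Tn5 transposase cuts open chromatin, so the reads in a region follow how accessible promoters and enhancers are in the sorted population. In sorted cells, fewer cells with an open region and less opening per cell cannot be told apart.

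Promoters of Etv2 and of 5 genes with called start regions, chosen after their values were seen, are shown as RefSeq gives them in GRCm38.p6, 5′ to 3′ on the strand of the gene, from 250 bases before to 50 after the transcription start, with CpG dinucleotides in capitals. Etv2 is the targeted gene. Hprt, Plagl1 and Nnat had start regions that were higher in KO DP, and Msgn1 and Aldh1a2 are 2 of those whose start regions were lower.
Etv2, chr7:30635803-30636102, minus strand: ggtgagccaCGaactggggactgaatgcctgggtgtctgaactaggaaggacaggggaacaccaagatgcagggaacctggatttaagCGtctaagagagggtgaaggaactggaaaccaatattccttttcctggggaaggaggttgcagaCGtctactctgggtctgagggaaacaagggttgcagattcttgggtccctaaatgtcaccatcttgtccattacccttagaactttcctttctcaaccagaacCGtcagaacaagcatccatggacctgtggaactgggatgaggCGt
Hprt, chrX:52987828-52988127, plus strand: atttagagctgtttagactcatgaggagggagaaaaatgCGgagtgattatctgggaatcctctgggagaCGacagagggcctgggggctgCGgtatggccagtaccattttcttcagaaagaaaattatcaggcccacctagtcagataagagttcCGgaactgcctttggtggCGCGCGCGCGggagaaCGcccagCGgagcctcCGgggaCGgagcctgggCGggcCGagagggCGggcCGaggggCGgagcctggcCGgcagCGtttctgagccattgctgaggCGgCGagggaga
Plagl1, chr10:13090582-13090881, plus strand: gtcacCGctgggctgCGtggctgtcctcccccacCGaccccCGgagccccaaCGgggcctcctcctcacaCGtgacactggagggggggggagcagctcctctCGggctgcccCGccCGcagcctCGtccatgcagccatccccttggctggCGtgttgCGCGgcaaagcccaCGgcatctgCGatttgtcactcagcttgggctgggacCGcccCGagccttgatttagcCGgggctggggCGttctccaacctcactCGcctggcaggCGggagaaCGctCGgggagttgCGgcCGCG
Nnat, chr2:157559828-157560127, plus strand: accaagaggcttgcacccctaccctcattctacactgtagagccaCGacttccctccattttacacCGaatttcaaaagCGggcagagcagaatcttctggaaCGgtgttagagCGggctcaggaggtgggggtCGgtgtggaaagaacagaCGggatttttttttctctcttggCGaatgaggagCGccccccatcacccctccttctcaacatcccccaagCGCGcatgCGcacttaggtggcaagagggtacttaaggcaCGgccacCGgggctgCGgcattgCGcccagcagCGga
Msgn1, chr12:11208899-11209198, minus strand: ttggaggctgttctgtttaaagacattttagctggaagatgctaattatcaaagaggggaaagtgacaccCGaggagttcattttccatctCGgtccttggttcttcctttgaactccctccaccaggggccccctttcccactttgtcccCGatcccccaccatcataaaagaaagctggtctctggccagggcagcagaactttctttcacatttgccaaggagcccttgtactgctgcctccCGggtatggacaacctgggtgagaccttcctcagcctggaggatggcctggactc
Aldh1a2, chr9:71215539-71215838, plus strand: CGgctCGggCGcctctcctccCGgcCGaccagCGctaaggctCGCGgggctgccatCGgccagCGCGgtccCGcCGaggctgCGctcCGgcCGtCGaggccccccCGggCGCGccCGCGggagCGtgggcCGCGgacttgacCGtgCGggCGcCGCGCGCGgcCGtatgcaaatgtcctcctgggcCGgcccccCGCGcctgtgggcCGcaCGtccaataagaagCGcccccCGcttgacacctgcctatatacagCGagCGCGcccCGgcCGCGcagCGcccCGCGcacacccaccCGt

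The 3 shown whose start regions were higher held 22 (Hprt), 26 (Plagl1) and 17 (Nnat) CpG dinucleotides, against a median of 7 over 32851 RefSeq promoters of the same length. Of the others, Msgn1, a basic helix-loop-helix factor of presomitic mesoderm, held 4, and Aldh1a2, which makes retinoic acid in somitic mesoderm, held 50. Etv2 held 5. The ETS motif CCGGAA, searched on both strands, was present in 14.9% of the promoters and matched among these 6 at Hprt alone, with 2 matches that overlap on opposite strands.

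The targeted gene was examined in every library first. Inside Etv2, 824 to 1224 bases downstream of its start, the region chr7:30634628-30635028 held 563 and 611 normalized reads (WT DP) against 0.840 and 0 (KO DP), with WT SP at 475 and 493 and OE SP at 425 and 645. The region at the 3′ end of the gene, chr7:30633790-30634190, held 124 and 98.8 (WT DP) against 0 and 0 (KO DP). Reads over the body of Etv2 were thus at or near 0 in the KO DP libraries alone (log2 difference -6.77 ± 0.21 SE, adjusted p = 3.24e-08 and log2 difference -4.53 ± 0.22 SE, adjusted p = 1.02e-06). Missing sequence and closed chromatin cannot be told apart from such reads. From recovered reads, 1260 against 1, the region inside the gene was 1195-fold lower in KO DP with a 95% counting interval of 214 to 47226, and the 3′ region, with 238 reads against 0, was at least 75.2-fold lower when 3 reads over both libraries were taken as the floor. The remaining region, chr7:30636355-30636755, lies 503 to 903 bases upstream of this start and takes in the 5′ end of the annotated gene span. It held 133 and 109.6 (WT DP) against 199.8 and 193 (KO DP), with no call (log2 difference 0.68 ± 0.24 SE, adjusted p = 0.144), so reads were present at the 5′ side of the gene in the knockout line. The promoter window itself lies under none of the deposited regions.

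**Figure D1:**
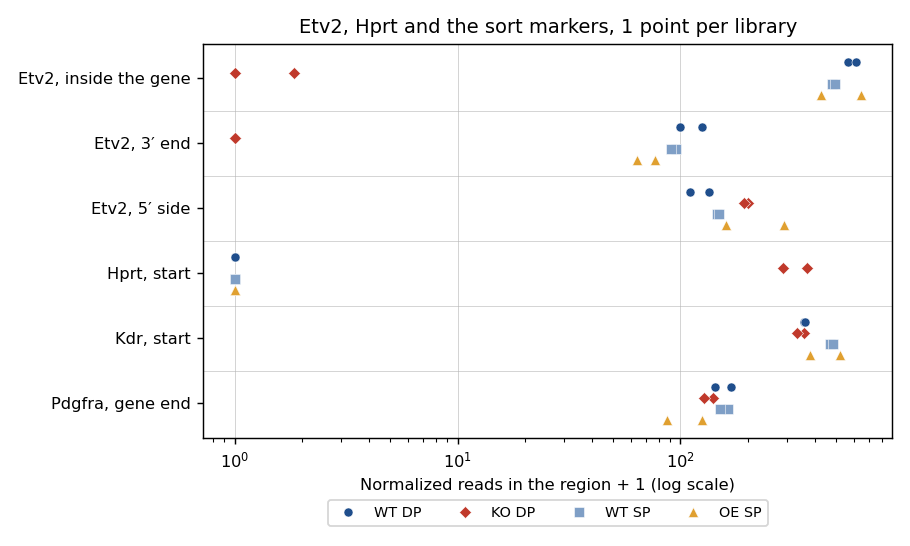
Normalized reads plus 1 on a log axis, 1 point per library, for the 3 Etv2 regions, the Hprt start and gene-end regions of the sort markers Kdr and Pdgfra. The KO DP points lie at 0 or 0.840 normalized reads at the body and 3′ end of Etv2, and at Hprt the KO DP points alone are above 0.

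The start of Hprt, the X-linked gene of purine salvage, had reads in the knockout line alone. Whether the sequence was closed or missing in the other lines was not tested. Its region chrX:52987879-52988279 held 0 and 0 normalized reads (WT DP) against 367 and 286 (KO DP), with WT SP at 0 and 0 and OE SP at 0 and 0. It was at least 238-fold higher in KO DP at the same floor (log2 difference 6.04 ± 0.27 SE, adjusted p = 6.77e-07). Its mean passed the filter through KO DP alone, so it had to differ, and the p-value adds no support. All 6 libraries of the A2lox.Cre and iETV2 lines were at 0 at this housekeeping promoter, with and without induced Etv2.

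The receptors used for the sort showed no call at these gene ends. The Kdr start region held 356 and 362 (WT DP) against 356 and 333 (KO DP) (log2 difference -0.06 ± 0.17 SE, adjusted p = 0.885), and the Pdgfra gene-end region held 142 and 167 (WT DP) against 139 and 127 (KO DP) (log2 difference -0.20 ± 0.20 SE, adjusted p = 0.635). Of the markers of 7 cell types, DP mesoderm, pluripotent cells, endothelium, blood, endoderm, neuroectoderm and feeder fibroblasts, 23 promoter regions were measured and none was called. The summed start regions of the endothelial markers Tek, Tie1, Emcn and Erg held 54.4 and 69.2 normalized reads (WT DP) and 50.4 and 59.4 (KO DP), against 249 and 244 (WT SP) and 1259 and 1922 (OE SP). Itga2b, the blood marker with a start region, held 28.2 and 24.3 (WT DP), 17.6 and 9.51 (KO DP), 141 and 153 (WT SP) and 333 and 586 (OE SP). These 5 marker starts together were lower in DP than in SP cells. Summed starts of the pluripotency markers held 763 and 702 (WT DP) against 561 and 507 (KO DP). For this sum, and for those of DP mesoderm, blood, endoderm, neuroectoderm and feeder markers, both KO DP libraries lay below both WT DP libraries, beside a median log2 difference of -0.14 over all 12294 start regions. The part of these cell types in other differences was not tested.

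Over all regions tested, 2881 (1.72%) were higher and 3696 (2.21%) lower in KO DP, by limma on log2(value + 5) at a Benjamini-Hochberg adjusted p below 0.05. At least a 2-fold difference on that scale was reached by 2440 of the rises (1.46% of the regions tested) and 2397 of the falls (1.43%). Outside chromosome 8 and the part of chromosome 4 from 85 to 105 Mb, which are described apart, the counts were 2425 (1.55%) and 3186 (2.03%) of 156610 regions. The median log2 difference over all regions was -0.07. The balance of rises and falls moved with the scaling, the test and the libraries used: rises were 43.8% of the calls here, 54.3% after rescaling on the 10000 highest regions, 59.4% without WT DP 1 and 59.1% with edgeR on recovered reads of 7 libraries, which called 3721 rises (2.22%) and 2577 falls (1.54%). DESeq2 called 1324 rises (0.79%) and 811 falls (0.484%), 62.0% of them rises.

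With 2 libraries per group, leaving 1 out leaves its group with 1 library. Fewer calls then cannot tell the weight of that library from the loss of replication. Without WT DP 1, WT DP 2, KO DP 1 or KO DP 2 there were 649, 646, 523 and 473 rises and 444, 433, 617 and 420 falls. Of the calls, 418 rises (14.5% of them) and 309 falls (8.36%) were made whichever of these 4 libraries was left out. Regions in this smaller set are marked below as kept without any 1 library.

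**Figure D2:**
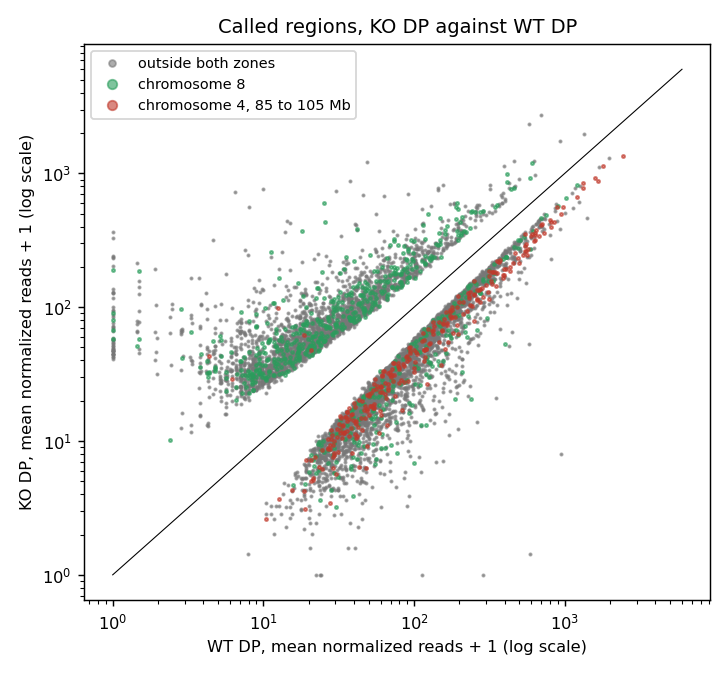
Mean normalized reads plus 1 of each called region in WT DP and KO DP on log axes, with the line of equal level and with the regions of chromosome 8 and of chromosome 4 from 85 to 105 Mb in colour. The regions of the chromosome 4 stretch lie almost wholly below the line, 275 lower against 5 higher.

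Under the deposited scaling, rises and falls differed in where they lay and in how open the regions were. At gene ends, within 1 kb of either end of a protein-coding gene, 157 of 17785 regions (0.883%) were higher and 452 (2.54%) lower, while farther than 100 kb from any gene 2.01% were higher and 2.02% lower. Of regions over the promoter windows of RefSeq genes, 84 of 12294 (0.683%) were higher and 301 (2.45%) lower. In the fifth of regions with the lowest mean, 1.98% were higher and 1.08% lower, and in the fifth with the highest mean 1.13% and 3.16%. Gene ends and level were not separated.

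Most rises were levels that no other group of the series had. Of the 2425 rises outside the zones, 2001 (82.5%) had both KO DP libraries above all other 6 libraries, against 9.41% of all regions tested there and 9.92% of all regions. Of the 3186 falls, 1738 (54.6%) had both KO DP libraries below the other 6, against 13.4% there and 13.3% of all regions. Both shares are set in part by the call itself, since a called region already separates KO DP from WT DP. In the comparison of OE SP with WT SP, which shares no library with this one, 242 of the rises (9.98%) were higher and 874 (36.0%) lower, beside 16.5% and 32.1% of all regions outside the zones, or 16.6% and 31.9% with the zones. Of the falls, 304 (9.54%) were higher and 1563 (49.1%) lower in OE SP. Regions that fell in the knockout line and were higher under induced Etv2 thus made up 9.54% of the falls and 1.18% of the 25862 regions higher in OE SP.

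The rises of largest size were regions that held almost no reads outside the knockout line. Altogether 42 regions on 16 chromosomes had 0 reads in all 6 libraries other than KO DP, with KO DP means from 40.2 to 361 normalized reads and a median of 60.9. Since their mean passed the filter through KO DP alone, they had to differ. They lay inside genes in 13 cases, at gene ends in 2, within 100 kb of a gene in 23 and farther away in 4. The opposite, 0 reads in both KO DP libraries and in none of the others, was seen in 6 regions, of which 5 were called.

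Among the 10 largest rises outside the zones, the region chr18:84660684-84661084, 6381 bases from Cndp2, a cytosolic dipeptidase gene, held 0 and 0 normalized reads (WT DP) against 403 and 319.7 (KO DP) and was at least 263-fold higher. A region at 0 in both WT DP libraries also lay inside Dchs2, a large cadherin gene [0 and 0 (WT DP) against 227 and 237 (KO DP)]. Atp6v1h, a subunit gene of the vacuolar proton pump, held 0 and 0 (WT DP) against 224 and 178 (KO DP) in a region inside the gene. Klk14, a kallikrein protease gene, held 0 and 0 (WT DP) against 228 and 245 (KO DP). Each was at least 147-fold higher at the floor. A few lay in levels well above this: near LOC115488002 the level was 9.71 and 8.08 (WT DP) against 809 and 721 (KO DP), and at 5730507C01Rik, both on chromosome 12, it was 2.91 and 8.08 (WT DP) against 778 and 666 (KO DP). All of the 10 were kept without any 1 library. They were picked by the size of this same difference, so being kept is no further support.

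The largest falls were complete or nearly so. Beside the body of Etv2, the region chr7:51955658-51956058 inside Gas2, a gene of a protein that links actin filaments and microtubules, held 956 and 933 normalized reads (WT DP) against 9.24 and 4.75 (KO DP), with WT SP at 1361 and 1306 and OE SP at 622 and 462, and all 6 other libraries were at least 462 (log2 difference -6.33 ± 0.20 SE, adjusted p = 3.24e-08). Near Gm33989 the region chr7:39655244-39655644 held 306 and 268 (WT DP) against 0 and 0 (KO DP), at least 194-fold lower. The other falls in the group of 10 were smaller. Near Ccr1, a chemokine receptor gene, the levels were 98.0 and 86.2 (WT DP) against 3.36 and 2.38 (KO DP). The region near Gcnt1, which builds branched O-glycans, held 131 and 178 (WT DP) against 5.04 and 7.13 (KO DP), and OE SP at 5.11 and 7.88 was as low as KO DP there. All were kept without any 1 library, but these falls too were picked by the size of the difference.

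At gene ends the rises of lowest adjusted p outside the zones were led by Hprt and by predicted or little-studied genes of chromosomes 7, 12, 14 and Y. Predicted genes, those with Gm, LOC or Rik names, made up 19.2% of the 130 gene-end rises and 7.69% of the 377 gene-end falls outside the zones, against 3.61% of the 17785 gene-end regions. A named gene among the rises was Rec8, the meiotic cohesin subunit, whose start region held 123 and 101 (WT DP) against 543 and 530.1 (KO DP), with WT SP at 171 and 149.7 and OE SP at 237 and 240.4 (log2 difference 2.22 ± 0.17 SE, adjusted p = 2.35e-05). Gm52481 on chromosome Y held 604 and 559 (WT DP) against 2446 and 2233 (KO DP). Among the falls, Glp1r, the receptor of glucagon-like peptide 1, held 320.3 and 353 (WT DP) against 98.2 and 83.2 (KO DP) at its start (log2 difference -1.84 ± 0.17 SE, adjusted p = 0.000104). Cntn4, a neuronal cell adhesion gene, held 268 and 278 (WT DP) against 76.4 and 86.8 (KO DP), and Zfp960, a zinc finger gene, held 1445 and 1358 (WT DP) against 485 and 441 (KO DP). The SP groups were above WT DP at Cntn4, with WT SP at 398 and 415 and OE SP at 350.1 and 445. Reads of near-identical gene copies, as in the predicted gene families of chromosomes 12 and 14, may be split or shared by the authors' mapping, so these values are uncertain.

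A block of chromosome 4 from 85 to 105 Mb was lower in the knockout line as a whole. Over its 1358 regions the median log2 difference, less the median of all regions, was -0.53, or 0.690-fold. The same median for each library against the mean of WT DP was -0.56 in both KO DP libraries, -0.02 and 0.02 (WT DP), 0.05 and 0.02 (WT SP), and 0.07 and -0.09 (OE SP). Of the block's regions 275 (20.3%) were called lower and 5 (0.368%) higher. Medians of its 5 Mb windows ran from -0.57 to -0.50. The 1 Mb windows on either side were near 0, at -0.06 just before the block and at 0.00 just after it, and the window from 85 to 86 Mb was also at 0.02. When the median of the block was removed from each library, 33 of its regions were lower and 22 higher. Falls of single regions in the block, as at Tek, stand beside this median.

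Within the block, some regions fell well beyond the rest. A region inside Tek, the angiopoietin receptor of endothelium, at chr4:94765177-94765577, held 45.6 and 47.6 (WT DP) against 5.88 and 4.75 (KO DP) (log2 difference -2.32 ± 0.21 SE, adjusted p = 8.05e-05). It was kept without any 1 library and after the block's median was removed. Regions at Acer2, an alkaline ceramidase gene [112 and 130.2 (WT DP) against 26.0 and 25.0 (KO DP)], Fggy, a carbohydrate kinase gene [149 and 153 (WT DP) against 38.6 and 33.3 (KO DP)], and Dmrta1, a DM-domain factor gene [73.8 and 56.6 (WT DP) against 12.6 and 11.9 (KO DP)], behaved likewise. Against the block, a region near Hook1, an adaptor of dynein transport, rose [9.71 and 13.5 (WT DP) against 94.0 and 101 (KO DP), log2 difference 2.64 ± 0.29 SE, adjusted p = 0.000405].

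Chromosome 8 was higher in the knockout line along most of its length. Its 9605 regions had a median of 0.20 above all regions, with 0.19 and 0.18 in the KO DP libraries against the WT DP mean, and 451 regions (4.70%) were higher and 235 (2.45%) lower. A stretch from 100 to 115 Mb, marked off after its values were seen, went the other way, with a median of -0.24, 18 rises and 92 falls in 1432 regions. On the rest of the chromosome the median was 0.26, or 1.19-fold, with 433 rises and 143 falls in 8173 regions. The WT SP and OE SP libraries had chromosome 8 medians from 0.05 to 0.14 against WT DP. When the medians of 5 Mb windows were removed, a choice made after seeing the data, 255 regions were higher and 336 lower.

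The strongest regions of chromosome 8 were larger than this shift. Inside Tnks, the gene of tankyrase, a region held 0 and 0 (WT DP) against 197 and 177 (KO DP) and was at least 135-fold higher. Inside Piezo1, the mechanically gated channel of endothelium and red cells, a region held 29.1 and 19.8 (WT DP) against 626 and 578 (KO DP) (log2 difference 4.38 ± 0.24 SE, adjusted p = 2.50e-06). At a gene end of Fgl1, a hepatic fibrinogen-like gene, the levels were 14.6 and 19.8 (WT DP) against 381 and 361 (KO DP). Smaller falls lay near the defensin gene Defa21 [228 and 251 (WT DP) against 20.2 and 19.0 (KO DP)] and near the chemokine gene Ccl17 [261 and 259.6 (WT DP) against 68.0 and 65.4 (KO DP)].

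**Figure D3:**
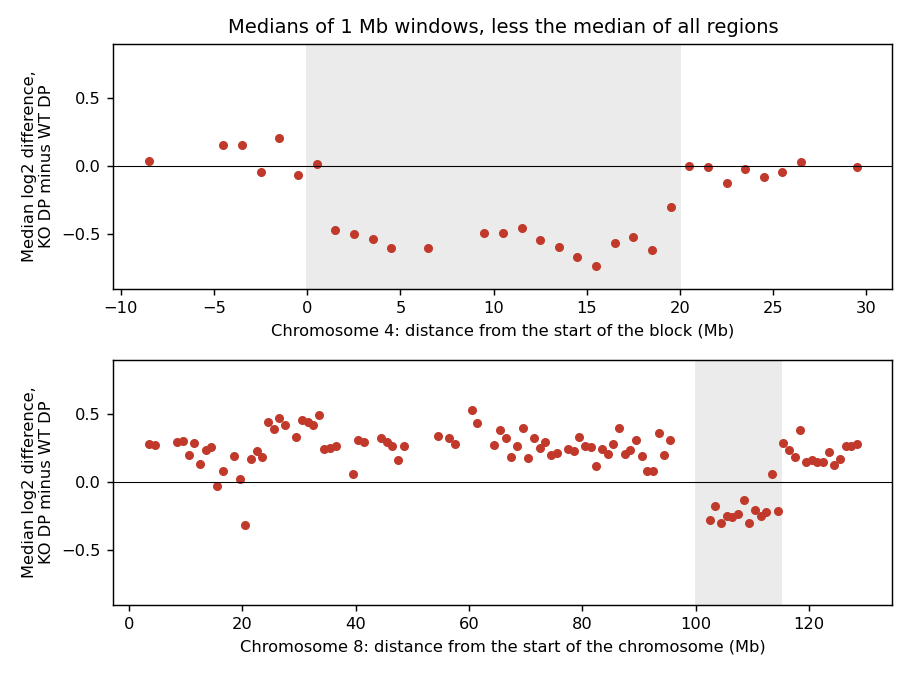
Median log2 difference of KO DP from WT DP, less the median of all regions, in 1 Mb windows with at least 20 regions along chromosome 4 around the block (shaded) and along chromosome 8 with the stretch from 100 to 115 Mb shaded. The shaded windows lie below 0 apart from the window at the start of the chromosome 4 block and 1 on chromosome 8, and most other windows of chromosome 8 lie above 0.

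Elsewhere, calls were dense in 23 windows of 1 Mb, chosen after their values were seen as those with at least 5 calls and at least 20% of regions called in 1 direction. They held 98 rises and 178 falls of 849 regions tested, and several held calls of both directions, as on chromosome 12 from 19 to 20 Mb with 6 rises and 5 falls. On chromosome 17 the window from 30 to 31 Mb held 38 falls and 0 rises in 150 regions around Dnah8, an axonemal dynein gene, Glp1r, Btbd9 and Glo1. On chromosome 1 the window from 171 to 172 Mb held 30 falls and 7 rises in 143 regions, with the intelectin gene Itln1, the natural killer receptor gene Cd244a and Fc receptor genes. On chromosome 7 the window from 60 to 61 Mb, over Snrpn, held 7 rises and 0 falls in 16 regions. Without these windows 2327 rises and 3008 falls remained outside the zones.

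The genes with the most called regions followed these stretches in part. Dnah8 had 22 falls among 38 regions and no rise. Itln1 fell at 10 of 11 regions and Cd244a at all 9. A region near Dnah8 held 70.9 and 115 (WT DP) against 7.56 and 5.94 (KO DP), with WT SP at 156 and 142 and OE SP at 956 and 937. One inside Cd244a held 409.6 and 416 (WT DP) against 134 and 116 (KO DP). Among rises, Cpne4, a calcium-dependent membrane-binding protein gene outside these windows, had 11 in 19 regions and no fall, and its region chr9:104521297-104521697 held 0.971 and 0 (WT DP) against 144 and 168 (KO DP). Ptprg, a receptor phosphatase gene, had 10 rises and 5 falls in 82 regions, and Nav2, a cytoskeletal gene, 11 and 9 in 102. The glutamate receptor genes Grik3 and Grid1 had 12 falls and 2 rises in 77 regions and 9 falls and 5 rises in 63. Grik3 at chr4:125521302-125521702 held 149 and 163 (WT DP) against 53.7 and 49.9 (KO DP), and without each library in turn its highest adjusted p was 0.0946.

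Lineage genes were read in 22 lists, with regions inside each gene or within 100 kb of it. Over all lists 169 regions were called, 15 of them kept without any 1 library. Without WT DP 1, WT DP 2, KO DP 1 and KO DP 2, 148, 149, 146 and 152 of these calls were lost. The share of regions called was near the background of 1.72% higher and 2.21% lower in most lists, and a count near that share is not a result about the list.

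**Figure D4:**
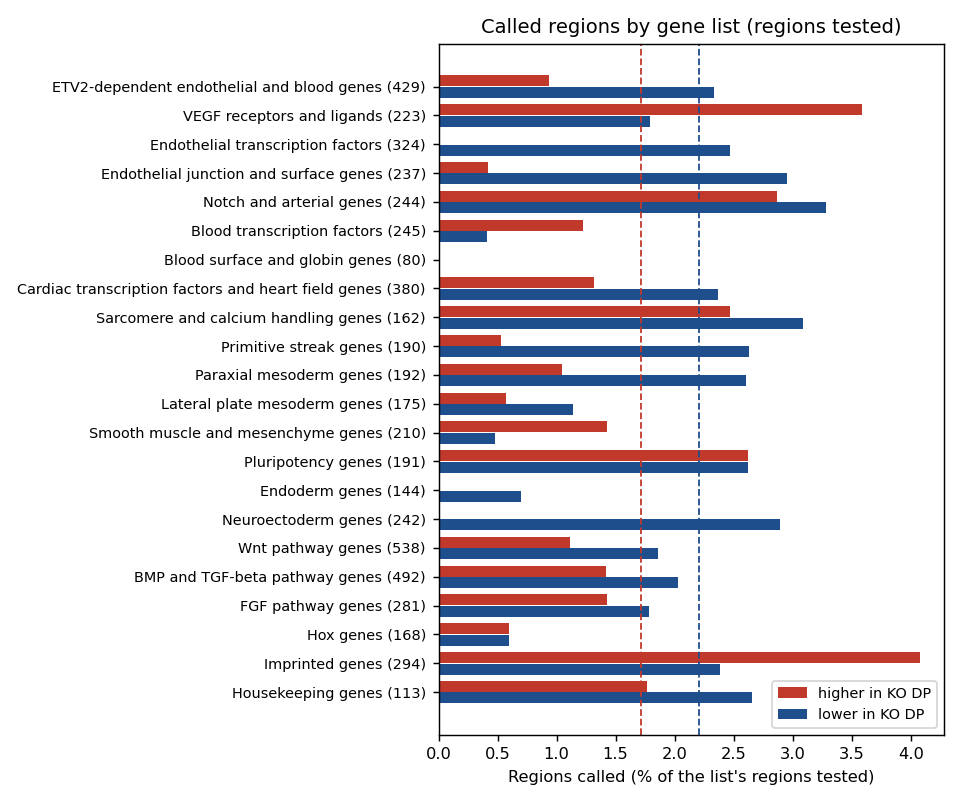
Percent of each list's tested regions that were higher or lower in KO DP, with the number of regions tested in brackets and dashed lines at the shares over all regions, 1.72% higher and 2.21% lower. Imprinted genes (4.08%) and VEGF receptors and ligands (3.59%) had the highest shares of rises, and 6 of the 12 imprinted rises were at Snrpn.

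Genes known to depend on ETV2 in endothelium and blood differed little as a list. Of their 429 regions, 4 (0.932%) were higher and 10 (2.33%) lower, and the median log2 difference was -0.11 less that of all regions. Outside chromosome 8 and the chromosome 4 block the list had 4 rises and 6 falls in 374 regions. Of the 18 start regions in the list, 1 was lower, that of Flt4, the VEGF receptor of lymphatic endothelium [467 and 446 (WT DP) against 306 and 301 (KO DP), log2 difference -0.58 ± 0.14 SE, adjusted p = 0.0446]. The Flt4 call was lost without each DP library in turn, with an adjusted p of up to 0.347, and with DESeq2. Of the 14 calls, 12, 12, 11 and 12 were lost without WT DP 1, WT DP 2, KO DP 1 and KO DP 2, and other scalings and count tests gave 1 to 11 rises and 1 to 17 falls. The starts of Tal1, a helix-loop-helix factor of blood and endothelium, held 223 and 239.8 (WT DP) against 172 and 169 (KO DP), with WT SP at 395 and 340.0 and OE SP at 487 and 553, and were not called (log2 difference -0.43 ± 0.16 SE, adjusted p = 0.157). Those of Gata2, a zinc finger factor of blood progenitors, held 406 and 383 (WT DP) against 312 and 303 (KO DP) (log2 difference -0.35 ± 0.17 SE, adjusted p = 0.276). The start of Erg, an ETS factor, held 19.4 and 18.0 (WT DP) against 18.5 and 27.3 (KO DP), with WT SP at 95.7 and 89.2 and OE SP at 284 and 455. That of Tie1, an endothelial receptor gene, held 5.82 and 8.98 (WT DP) against 5.04 and 7.13 (KO DP), with WT SP at 35.6 and 26.8 and OE SP at 312 and 461, so both were lower in all 4 DP libraries than in any SP library.

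The called regions of endothelial junction and surface genes were mostly lower, 7 falls (2.95%) and 1 rise (0.422%) of 237. Outside chromosome 8 and the chromosome 4 block the list had 3 falls and 1 rise in 179 regions. The falls included 2 regions inside Tek, in the chromosome 4 block, of which the second was lost when the block's median was removed. Esam, an endothelial adhesion gene, fell at both ends of the gene [113 and 112 (WT DP) against 73.0 and 51.1 (KO DP) at the first and 19.4 and 18.9 (WT DP) against 5.88 and 7.13 (KO DP) at the other, adjusted p = 0.0366 and 0.0415]. Cldn5, a tight junction gene, fell at a region 43325 bases away that held 19.4 and 26.0 (WT DP) against 7.56 and 9.51 (KO DP) and held 532.5 and 656 in OE SP. Cdh5, which encodes VE-cadherin, fell at 2 distal regions, of which chr8:104050959-104051359 held 106 and 109.6 (WT DP) against 45.3 and 45.2 (KO DP) (log2 difference -1.17 ± 0.19 SE, adjusted p = 0.00528). These lie in the stretch of chromosome 8 that was lower as a whole, and the other of them was lost when medians of 5 Mb windows were removed. Of the 8 calls, 7, 7, 6 and 7 were lost without WT DP 1, WT DP 2, KO DP 1 and KO DP 2, and the highest adjusted p of the Cdh5 region with coordinates given was then 0.0974. Only the first Tek region, described above, was kept.

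Endothelial transcription factor genes had 8 falls (2.47%) and no rise in 324 regions, with a median of -0.07 less that of all regions. Etv6, an ETS repressor, fell at 3 regions inside the gene, with 35.9 and 44.9 (WT DP) against 6.72 and 10.7 (KO DP) at chr6:134152084-134152484 (log2 difference -1.74 ± 0.27 SE, adjusted p = 0.00383). The region chr6:134189738-134190138 held 47.6 and 51.2 (WT DP) against 24.3 and 26.1 (KO DP), with WT SP at 124 and 158 and OE SP at 679.9 and 889. This region was lowest in the knockout and highest with induced Etv2. At chr6:134152084-134152484 the order of the groups was the same, with WT SP at 58.0 and 56.5 and OE SP at 88.3 and 143. The remaining Etv6 fall, chr6:134173502-134173902, held 182 and 195 (WT DP) against 97.4 and 96.3 (KO DP). There WT SP was at 90.6 and 94.2 and OE SP at 33.6 and 59.1, so that region was lowest with induced Etv2. Sox18, a SoxF factor of endothelium, fell at a gene end [213 and 169 (WT DP) against 109 and 109 (KO DP)] and 1816 bases away [126 and 141 (WT DP) against 68.8 and 54.7 (KO DP)]. Elk3, an ETS ternary complex factor, and Nfatc1, a factor of endocardium, fell at 1 region each [59.2 and 55.7 (WT DP) against 27.7 and 21.4 (KO DP) at Elk3 and 35.9 and 40.4 (WT DP) against 10.1 and 13.1 (KO DP) at Nfatc1]. Left out in turn, WT DP 1, WT DP 2, KO DP 1 and KO DP 2 removed 7, 8, 8 and 7 of the 8 calls, and other scalings and count tests gave 1 to 13 falls and 0 to 5 rises.

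VEGF receptors and ligands had more rises than the background, 8 of 223 (3.59%), with 4 falls (1.79%), and outside chromosome 8 and the chromosome 4 block 6 rises and 4 falls of 178. A region inside Flt1, the decoy receptor of VEGF, at chr5:147626996-147627396, held 13.6 and 11.7 (WT DP) against 64.7 and 74.9 (KO DP) and was kept without any 1 library (log2 difference 2.08 ± 0.24 SE, adjusted p = 0.000573). Both SP groups were below KO DP there, with WT SP at 6.11 and 6.94 and OE SP at 33.6 and 27.6. Kdr rose inside the gene at chr5:75971783-75972183 [13.6 and 12.6 (WT DP) against 42.0 and 42.8 (KO DP), log2 difference 1.39 ± 0.24 SE, adjusted p = 0.00778] and 69836 bases away [15.5 and 18.9 (WT DP) against 36.9 and 49.9 (KO DP)], while its start was not called. The coreceptor gene Nrp1 rose at a region 41834 bases away on chromosome 8 [10.7 and 8.98 (WT DP) against 52.1 and 58.2 (KO DP), log2 difference 2.02 ± 0.28 SE, adjusted p = 0.00182], a call lost without KO DP 2 (adjusted p = 0.056). Nrp2 had 2 rises and 1 fall. Vegfa, the ligand, fell 1228 bases from the gene [209 and 214 (WT DP) against 94.9 and 115 (KO DP)]. Without WT DP 1, WT DP 2, KO DP 1 and KO DP 2, 10, 10, 10 and 11 of the 12 calls were lost, and other scalings and count tests gave 2 to 14 rises.

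Notch and arterial genes were called in both directions, 7 higher (2.87%) and 8 lower (3.28%) of 244, and outside chromosome 8 and the chromosome 4 block 3 higher and 7 lower of 218. Efnb2, the ephrin ligand that marks arteries, rose at 4 regions on chromosome 8 and fell at 1, and among the rises was chr8:8552860-8553260 [15.5 and 30.5 (WT DP) against 80.6 and 74.9 (KO DP), log2 difference 1.61 ± 0.30 SE, adjusted p = 0.0113]. Of the 4 rises, 2 were lost when medians of 5 Mb windows were removed. Heyl, a Notch target repressor, fell at 2 regions, and the region inside the gene held 318 and 305 (WT DP) against 134 and 125 (KO DP) (log2 difference -1.24 ± 0.17 SE, adjusted p = 0.00218). Notch1 had 2 falls, with 112 and 101 (WT DP) against 36.1 and 41.6 (KO DP) at a region 12485 bases away, and 1 rise. Cxcr4, the chemokine receptor of arterial endothelium and mesoderm, had 2 rises and 1 fall. Leaving out WT DP 1, WT DP 2, KO DP 1 and KO DP 2 removed 15, 14, 14 and 15 of the 15 calls, and other scalings and count tests gave 3 to 14 rises and 2 to 8 falls, with 13 rises and 7 falls after median-of-ratios rescaling and 11 and 4 with edgeR.

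Blood genes were called rarely. Transcription factors of blood had 3 rises (1.22%) and 1 fall (0.408%) in 245 regions, and blood surface and globin genes had no call in 80. The rises were all at Meis1, a homeobox factor of blood stem cells that is also made in heart mesoderm, with 104 and 115 (WT DP) against 264 and 295 (KO DP) at chr11:19023213-19023613 (log2 difference 1.31 ± 0.24 SE, adjusted p = 0.00985). OE SP was the lowest group there, with WT SP at 161 and 139.8 and OE SP at 22.6 and 42.0. Zfpm1, the cofactor of GATA factors on chromosome 8, fell at a region with 221 and 233 (WT DP) against 134 and 152 (KO DP) (log2 difference -0.65 ± 0.15 SE, adjusted p = 0.0349). All 4 calls were lost without each of the 4 DP libraries in turn, and Meis1 then reached an adjusted p of up to 0.175. Other scalings and count tests gave 1 to 8 rises and 0 to 7 falls for the transcription factors, and 0 rises and 0 to 2 falls for the surface and globin genes.

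Cardiac transcription factor and heart field genes had 5 rises (1.32%) and 9 falls (2.37%) in 380 regions, near the 1.72% and 2.21% over all regions. Hand1, a helix-loop-helix factor of lateral mesoderm and early heart, fell at 3 regions, and that of lowest adjusted p, chr11:57876144-57876544, lay 43997 bases away and held 282 and 249.7 normalized reads (WT DP) against 57.9 and 45.2 (KO DP), with WT SP at 176 and 162 and OE SP at 41.6 and 76.2 (log2 difference -2.27 ± 0.25 SE, adjusted p = 0.000371). Isl1, a LIM homeobox factor of the second heart field, rose 32587 bases away at chr13:116342275-116342675, with 31.1 and 27.8 (WT DP) against 181 and 151 (KO DP), with WT SP at 17.3 and 18.8 and OE SP at 10.2 and 9.20, so that KO DP was above all other libraries (log2 difference 2.31 ± 0.22 SE, adjusted p = 0.000139). These 2 were kept without any 1 library. Tbx20, a T-box factor of heart, fell at 2 regions [107 and 92.5 (WT DP) against 38.6 and 44.0 (KO DP) at the second] and rose at 1, and Myocd, a coactivator in cardiac and smooth muscle, fell at a region that held 41.7 and 49.4 (WT DP) against 5.88 and 14.3 (KO DP). No start region of the list was called. Of the 14 calls, 12 were lost without each DP library in turn, and other scalings and count tests gave 1 to 13 rises and 1 to 9 falls.

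Sarcomere and calcium handling genes had 4 rises (2.47%) and 5 falls (3.09%) in 162 regions, with a median 0.14 above that of all regions. Ldb3, a Z-disc protein gene, fell at 4 regions inside the gene and rose at 1. The region chr14:34563925-34564325 held 43.7 and 45.8 (WT DP) against 8.40 and 7.13 (KO DP), with WT SP at 30.5 and 32.7 and OE SP at 13.9 and 9.20, and was kept without any 1 library (log2 difference -1.96 ± 0.25 SE, adjusted p = 0.00118). Ryr2, the calcium release channel of heart, rose at 2 regions [14.6 and 13.5 (WT DP) against 46.2 and 44.0 (KO DP) at chr13:12096884-12097284]. Tnni1, slow skeletal troponin I, rose at a region with 13.6 and 14.4 (WT DP) against 47.9 and 64.2 (KO DP) (log2 difference 1.67 ± 0.25 SE, adjusted p = 0.00346). Of the 9 calls, 8, 8, 6 and 8 were lost without WT DP 1, WT DP 2, KO DP 1 and KO DP 2.

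**Figure D5:**
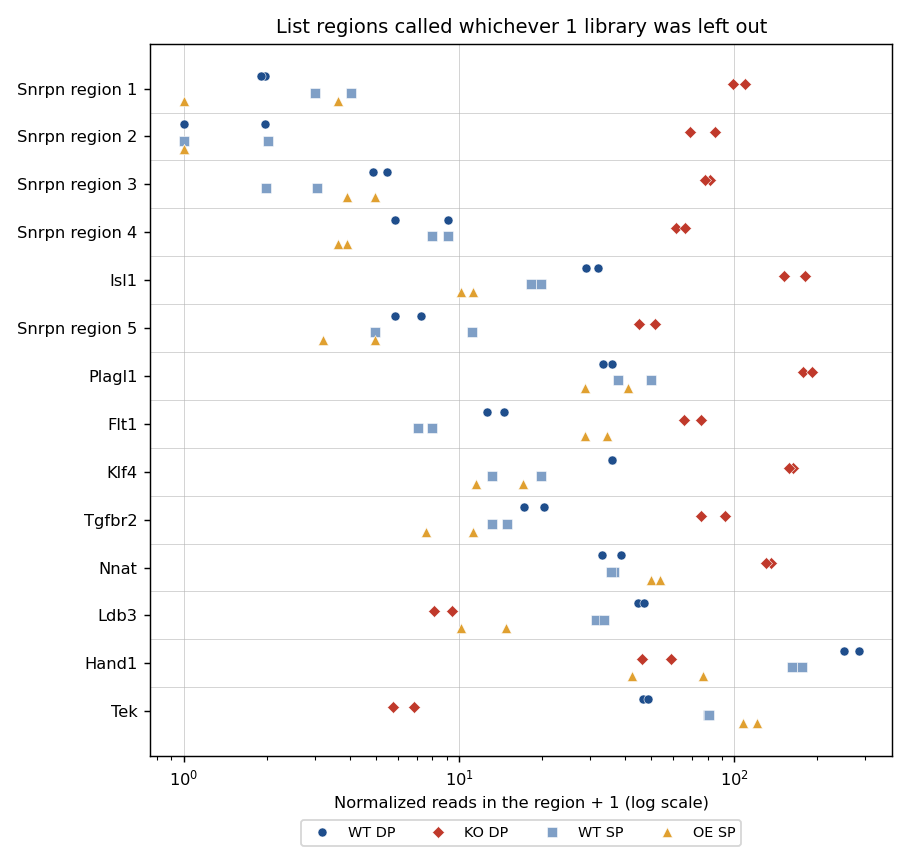
Normalized reads plus 1 on a log axis, 1 point per library, for the list regions other than Hprt that were called whichever of the 4 DP libraries was left out. KO DP lies to the right of all other libraries in the 11 rises, 5 of them at Snrpn, and to the left of WT DP in the falls at Ldb3, Hand1 and Tek.

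Start regions of paraxial mesoderm genes were lower at 3 of the 8 measured, against 2.45% of all start regions. Msgn1 held 242 and 243 normalized reads (WT DP) against 109 and 126 (KO DP) (log2 difference -1.02 ± 0.19 SE, adjusted p = 0.0125), Aldh1a2 held 258 and 238 (WT DP) against 140.2 and 120.0 (KO DP) (log2 difference -0.91 ± 0.16 SE, adjusted p = 0.0102), and Lfng, a glycosyltransferase of the segmentation clock, held 914 and 807 (WT DP) against 581 and 521 (KO DP) (log2 difference -0.64 ± 0.15 SE, adjusted p = 0.0407). The Msgn1 start was also low in both SP groups, with WT SP at 96.7 and 125 and OE SP at 25.5 and 26.3, whereas at the Aldh1a2 start KO DP was below all other libraries, with WT SP at 252 and 226 and OE SP at 204 and 205. Dll1, a Notch ligand of presomitic mesoderm, fell at a region 29148 bases away [36.9 and 41.3 (WT DP) against 11.8 and 11.9 (KO DP)]. Ripply2, a repressor at somite borders, rose at 1 [3.88 and 6.29 (WT DP) against 28.5 and 35.7 (KO DP)]. Over all 192 regions of the list, 5 (2.60%) were lower and 2 (1.04%) higher. Other scalings and count tests gave 0 to 9 falls and 0 to 5 rises for the list, and DESeq2 did not call the Aldh1a2 start. Each of the 7 calls was lost without each DP library in turn, Msgn1 to an adjusted p of up to 0.158 and Aldh1a2 of up to 0.174.

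Primitive streak genes had 5 falls (2.63%) and 1 rise (0.526%) in 190 regions. Wnt3, the ligand that starts the streak, fell inside the gene [530.0 and 479 (WT DP) against 264 and 267 (KO DP), log2 difference -0.91 ± 0.17 SE, adjusted p = 0.0109], and Fgf8 fell at 2 regions, with 491 and 522 (WT DP) against 220.0 and 219.9 (KO DP) 918 bases away. Eomes, a T-box factor of streak and endoderm, fell at a region with 108 and 98.8 (WT DP) against 42.8 and 60.6 (KO DP). Lhx1, a LIM homeobox factor, was the rise [133 and 111 (WT DP) against 305 and 264 (KO DP), log2 difference 1.19 ± 0.19 SE, adjusted p = 0.00569]. WT SP was below WT DP at the Wnt3 region, with WT SP at 223 and 225 and OE SP at 96.3 and 76.2. Without each of the 4 libraries in turn all 6 calls were lost, and other scalings and count tests gave 0 to 4 falls and 1 to 6 rises. After quantile normalization, or rescaling on the 10000 highest regions, the list had 6 rises and 4 falls, so its balance turned with the scaling.

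Genes of other mesoderm and germ layers had few calls. Lateral plate mesoderm genes had 1 rise and 2 falls in 175 regions, with Foxf1, a forkhead factor of splanchnic mesoderm, at 64.1 and 56.6 (WT DP) against 31.1 and 23.8 (KO DP). Smooth muscle and mesenchyme genes had 3 rises and 1 fall in 210, with Tagln, an actin-binding protein of smooth muscle, at 196 and 181 (WT DP) against 319 and 335 (KO DP) (log2 difference 0.78 ± 0.17 SE, adjusted p = 0.03) and Twist2 lower at 135 and 135 (WT DP) against 52.9 and 58.2 (KO DP). Endoderm genes had 1 fall in 144, at Amn. Neuroectoderm genes had 7 falls (2.89%) and no rise in 242, with Sox1 on chromosome 8 at 57.3 and 65.6 (WT DP) against 16.0 and 16.6 (KO DP) and Zic1 at 91.2 and 79.0 (WT DP) against 43.7 and 34.5 (KO DP). Pluripotency genes had 5 of each in 191 (2.62%). A region 51149 bases from Klf4, a Krüppel-like factor, at chr4:55583624-55584024, rose and was kept without any 1 library [34.9 and 35.0 (WT DP) against 162 and 157 (KO DP), log2 difference 2.04 ± 0.25 SE, adjusted p = 0.000826]. Esrrb, a nuclear receptor of pluripotent cells, fell at a region with 136 and 97.0 (WT DP) against 57.1 and 34.5 (KO DP) (log2 difference -1.28 ± 0.24 SE, adjusted p = 0.0116). The Klf4 rise apart, the calls of these lists were lost without at least 2 of the 4 DP libraries, the Esrrb fall to an adjusted p of up to 0.197 and the Tagln rise of up to 0.276.

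Signalling genes were called at or below the background. Wnt pathway genes had 6 rises (1.12%) and 10 falls (1.86%) in 538 regions. Axin2, a feedback target of Wnt, fell inside the gene [209 and 251 (WT DP) against 84.8 and 78.4 (KO DP), log2 difference -1.43 ± 0.19 SE, adjusted p = 0.00144], and WT SP was as low as KO DP there, with WT SP at 93.6 and 79.3 and OE SP at 46.0 and 48.6. Wnt2, a ligand of cardiac mesoderm, rose at 2 regions, with 45.6 and 43.1 (WT DP) against 195 and 159 (KO DP) inside the gene. Dkk1, a secreted Wnt inhibitor, rose 5977 bases away [22.3 and 18.0 (WT DP) against 61.3 and 57.0 (KO DP)]. BMP and TGF-beta genes had 7 rises (1.42%) and 10 falls (2.03%) in 492. Of BMP target genes, Id1 fell at 1 of 9 regions, with 446 and 357 (WT DP) against 165 and 172 (KO DP) (log2 difference -1.22 ± 0.19 SE, adjusted p = 0.00365), and Id3 at 3 of 17. Msx1 rose at 2 of 31, and Id2, Msx2, Smad6 and Smad7 had no call. Tgfbr2, the type II receptor, rose 20043 bases away at chr9:116195406-116195806, with 19.4 and 16.2 (WT DP) against 91.5 and 74.9 (KO DP), and was kept without any 1 library (log2 difference 1.95 ± 0.26 SE, adjusted p = 0.00139).

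FGF pathway genes had 4 rises (1.42%) and 5 falls (1.78%) in 281 regions, with falls at the ligands Fgf3 [143 and 125 (WT DP) against 60.5 and 49.9 (KO DP)], Fgf4 at its start [324 and 304 (WT DP) against 202 and 190.2 (KO DP)] and Fgf8, and rises at the feedback phosphatase Dusp6 [20.4 and 20.7 (WT DP) against 54.6 and 59.4 (KO DP)] and the receptor Fgfr1 [131 and 127 (WT DP) against 256 and 222 (KO DP)]. Fgfr1 lies on chromosome 8, and its call was lost when the median of the chromosome was removed. Hox genes, 39 in all, had 1 rise and 1 fall in 168 regions, the fall at Hoxd4 [92.2 and 88.0 (WT DP) against 43.7 and 53.5 (KO DP)]. Without WT DP 1, WT DP 2, KO DP 1 and KO DP 2, 15, 16, 15 and 15 of the 16 Wnt calls and 14, 15, 16 and 16 of the 17 BMP and TGF-beta calls were lost, and all FGF and Hox calls each time. The Axin2 call was lost without WT DP 2, with an adjusted p of 0.0539.

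Imprinted genes, in which 1 parental copy is silenced by DNA methylation, had 12 rises (4.08%) and 7 falls (2.38%) in 294 regions, and 7 of the rises were kept without any 1 library. Of the 12 rises 6 were at Snrpn alone, so the share rests largely on 1 gene. At least 1 Snrpn region, given below, passed the filter through KO DP alone and had to differ. Such a call, kept or not, adds no support to the share. Other scalings and count tests gave 7 to 25 rises and 0 to 10 falls. The start shared by Plagl1, a zinc finger growth regulator made from the paternal copy, and the noncoding gene Hymai held 34.9 and 32.3 normalized reads (WT DP) against 177 and 190.2 (KO DP), with WT SP at 48.9 and 36.7 and OE SP at 40.1 and 27.6 (log2 difference 2.29 ± 0.23 SE, adjusted p = 0.000181). Nnat, a paternally expressed membrane protein gene, held 32.0 and 37.7 (WT DP) against 135 and 129.5 (KO DP) at chr2:157561195-157561595 inside the gene (log2 difference 1.79 ± 0.20 SE, adjusted p = 0.000414). Its start held 18.4 and 32.3 (WT DP) against 84.8 and 71.3 (KO DP), a call lost without each DP library in turn, with an adjusted p of up to 0.269. At these regions KO DP was above all other libraries, which lay between 10.5 and 52.6 normalized reads.

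Snrpn, a paternally expressed splicing protein gene whose annotated span is long, rose at 6 regions within the window of neighbouring calls on chromosome 7. The region chr7:60244178-60244578 held 0.971 and 0.898 normalized reads (WT DP) against 98.2 and 108 (KO DP), with WT SP at 3.05 and 1.98 and OE SP at 0 and 2.63. That is 2 recovered reads against 208, 109.7-fold more, with 95% counting limits of 30.0 and 912. The mean of this region passed the filter through KO DP alone, so it had to differ. The region chr7:60133386-60133786 held 3.88 and 4.49 (WT DP) against 80.6 and 77.3 (KO DP) (log2 difference 3.19 ± 0.27 SE, adjusted p = 5.99e-05). Other imprinted starts were not called, among them Peg3 [460.1 and 479 (WT DP) against 533 and 462 (KO DP)], Mest [126 and 104 (WT DP) against 128 and 132 (KO DP)], Igf2r [226 and 257 (WT DP) against 212 and 212 (KO DP)], Grb10 [84.5 and 76.3 (WT DP) against 72.2 and 84.4 (KO DP)] and Ndn [194 and 191 (WT DP) against 131 and 133 (KO DP)]. Of the 18 start regions of the list 2 were higher and none lower. Dlk1, Rtl1 and Dio3, of the imprinted cluster on chromosome 12, had falls, as at chr12:109539649-109540049 near Rtl1 [47.6 and 44.9 (WT DP) against 18.5 and 13.1 (KO DP)], and each was lost without each DP library in turn (Rtl1, adjusted p of up to 0.201).

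Housekeeping genes had 2 rises and 3 falls in 113 regions. Hprt, which passed the filter through KO DP alone, was the rise kept without any 1 library. The falls all lay near Ywhaz, with 581 and 569 (WT DP) against 249 and 227 (KO DP) 63321 bases from the gene. Of the 13 start regions measured, that of Hprt was the 1 called.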

How the data were processed

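Day 4 embryoid body cells were sorted and 50000 live cells per library went through Omni-ATAC and 75 bp paired sequencing, per the labels' protocols. Bowtie2, MACS2 and DiffBind 3.14.1 with mouse build mm10 are named in the submitters' processing notes, without their roles. The deposited table holds signal, that is normalized reads, which were whole multiples of a step per library, and 12477601 to 18853733 whole reads per library were recovered in the regions, at a tolerance of 0.01. The sources used here do not state how scaling factors, duplicates and Tn5 shifts were treated, and another scaling moves the balance of rises and falls. Counting intervals are exact and cover counting error only.

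Values were tested as log2(value + 5), a scale that understates changes of low regions, with limma 3.58.1 in R 4.3.3, in 1 fit of 4 group means (4 residual and 8.15 prior degrees of freedom), two-sided, with adjustment over all 167573 regions. edgeR 4.0.16 and DESeq2 1.42.0 were run on the reads of 7 libraries, since 1 WT SP library's step was too close to 1 to check. The fit was tested on simulated data. Nearest protein-coding genes came from RefSeq (GRCm38.p6), within 100 kb. The text names regions of Etv2, Kdr and Pdgfra, the 10 largest rises and falls with groups that do not overlap, the 10 gene-end rises and falls of lowest adjusted p, the genes with most calls, the 5 of lowest adjusted p per direction in each zone, and in each list up to 4 genes by lowest adjusted p and those with at least 2 calls. A few regions that this rule picks are not reported here. Other regions that are named were chosen after their values were seen. The members and lists were chosen with earlier results of these data known.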

Additional observations from a re-analysis of the deposited data

How the results depend on the processing

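Over all regions, rises numbered 5260 after rescaling on the 10000 highest regions, 5807 after quantile normalization, 1902 on log2(value + 1), 14903 in a fit of the DP libraries alone and 1324 with DESeq2, and from 473 to 649 when 1 DP library was left out. Falls numbered 5675, 21995 and 811 after quantile normalization, in the DP libraries alone and with DESeq2, and from 420 to 617 with 1 library left out. Outside the zones these settings gave 4330, 4803, 1580, 12910 and 1079 rises (394 to 538 with 1 library left out) and 4970, 20362 and 660 falls (361 to 510). Rises were 52.8% of calls after median-of-ratios rescaling, 50.6% after quantile normalization, and 59.4% and 59.9% without WT DP 1 and WT DP 2. The chromosome 4 median was -0.63 on log2(value + 1) and ran from -0.57 to -0.52 with 1 library left out, and that of chromosome 8 was 0.20 after quantile normalization and 0.22 on log2(value + 1). No named region that was called changed direction. Replicate differences of WT DP and KO DP correlated at 0.01, which cannot show whether libraries of equal replicate number were made together. With the replicate block 2723 rises and 3105 falls were called. The cause of these changes in counts was not tested. The main fit shares 1 estimate of the spread over all 4 groups. Replicates of OE SP differed by a median of 0.37 in log2, against 0.18 (WT DP), 0.20 (KO DP) and 0.19 (WT SP). A median region held 27 to 42 reads per library, which limits what 2 libraries per group can show.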

Other observations

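On chromosome Y 18 of 40 regions were higher and 7 lower in KO DP, with a median log2 difference of 0.62 above that of all regions, and on chromosome X 37 and 42 of 3214. On chromosome 13 the 1 Mb window from 117 Mb, around Emb and Parp8, held 8 rises and no fall in 31 regions, and on chromosome 12 the window from 115 to 116 Mb held 5 falls and no rise in 6. Emb, a gene of an immunoglobulin-family adhesion protein, had 7 rises in 16 regions, and Npas3, a neuronal helix-loop-helix factor, had 9 falls and 2 rises in 51. These were chosen after their values were seen.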
